A study of Mus musculus with 12 samples.

Results

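The 38 genes described here are named for the cells of the vessel wall. Of these, 29 are used as markers of endothelial cells, which line blood vessels, 3 of the lymphatic endothelium, 2 of pericytes, which wrap capillaries, and 4 of vascular smooth muscle. A probe belonged to a member where its gene name in the array files equalled one of the 38 symbols, and every such probe was taken, 67 in all, among 56605 probes for 37074 gene names on the array. The RNA came from heart muscle of male C57BL6/J mice that were 5 months old, with 3 mice and 3 arrays in each of 4 groups. C mice had neither diabetes nor pargyline. D mice were made diabetic with streptozotocin, which destroys pancreatic β-cells, the source of insulin, at 50 mg/kg/day for 5 days, and so model type 1 diabetes by a chemical loss of those cells. They were given vehicle in place of pargyline. C+P mice were given pargyline, which blocks the monoamine oxidases (MAO), at 50 mg/kg/day for 12 weeks, and D+P mice were given both agents. All values are log2 signals after quantile normalisation between the 12 arrays, so a difference of 1 is a doubling, and levels of different probes are not compared with each other.

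Testing was limited to probes with a positive and significant signal on 50% or more of each group's arrays. This held for 50 member probes of 36 genes: 34 probes of 27 endothelial genes, 4 of the 3 lymphatic genes, 3 of both pericyte genes and 9 of the 4 smooth muscle genes. *Sele* and *Selp*, the E- and P-selectin genes that catch rolling leukocytes on inflamed endothelium, were the members left out. The single *Sele* probe lay between 2.82 and 3.55 and the 3 *Selp* probes between 2.83 and 4.55, and none of them was well above background on any of the 12 arrays. The brightest tested probe stands for each gene, and other probes are given where a count or a result turns on them. The pan-endothelial genes *Pecam1* and *Cdh5* were well above background on all 12 arrays, as were *Kdr*, *Flt1*, *Tek* and *Tie1*, so endothelial RNA was measured in every heart. In such bulk tissue fewer vessel cells and less RNA per cell cannot be told apart.

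Endothelial cells hold their identity through receptors for vascular growth factors and angiopoietins, through junction proteins that set how leaky the wall is, and through transcription factors of the ETS and SOX families. Signals through Notch receptors separate arterial from venous cells, and endothelial nitric oxide synthase relaxes the smooth muscle that surrounds the vessel. The heart muscle is dense with capillaries, and loss of capillaries and impaired vessel relaxation are known features of the diabetic heart.

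Many endothelial genes carry the core letters of ETS sites upstream of their start. The 250 bases before the start site are shown for the VEGF receptor genes *Flt1* and *Kdr*, the angiopoietin receptor family gene *Tie1*, the guidance receptor gene *Robo4* and the tight junction gene *Cldn5*, because all 5 had a higher signal in D+P than in D hearts, as described further on. They were chosen after their values were seen, from the 26 of 27 tested endothelial genes that lay higher in D+P. The windows are from RefSeq, assembly GRCm38.p6, written 5′ to 3′ on the strand of the gene, and capitals mark each GGAAG or its reverse complement CTTCC.
Flt1, chr5:147726012-147726261, minus strand: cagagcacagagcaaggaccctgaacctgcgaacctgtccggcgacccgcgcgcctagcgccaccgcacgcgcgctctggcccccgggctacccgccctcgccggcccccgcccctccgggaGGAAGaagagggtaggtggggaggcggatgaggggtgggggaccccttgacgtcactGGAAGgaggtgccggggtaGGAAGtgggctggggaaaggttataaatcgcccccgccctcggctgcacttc
Kdr, chr5:75978456-75978705, minus strand: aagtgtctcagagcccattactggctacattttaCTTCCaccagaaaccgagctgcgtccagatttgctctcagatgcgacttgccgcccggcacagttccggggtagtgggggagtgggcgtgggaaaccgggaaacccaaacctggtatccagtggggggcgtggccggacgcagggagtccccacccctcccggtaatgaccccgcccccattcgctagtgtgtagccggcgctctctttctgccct
Tie1, chr4:118489850-118490099, minus strand: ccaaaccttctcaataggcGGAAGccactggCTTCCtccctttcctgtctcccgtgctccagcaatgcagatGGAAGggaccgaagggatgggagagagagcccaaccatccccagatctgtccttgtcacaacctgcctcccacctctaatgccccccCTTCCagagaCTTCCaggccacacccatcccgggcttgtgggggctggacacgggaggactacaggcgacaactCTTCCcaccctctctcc
Robo4, chr9:37401722-37401971, plus strand: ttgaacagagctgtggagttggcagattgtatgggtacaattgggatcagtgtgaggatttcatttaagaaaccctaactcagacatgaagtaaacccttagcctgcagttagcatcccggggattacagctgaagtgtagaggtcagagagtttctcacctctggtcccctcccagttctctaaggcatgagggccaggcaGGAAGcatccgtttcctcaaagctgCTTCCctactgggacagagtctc
Cldn5, chr16:18776597-18776846, plus strand: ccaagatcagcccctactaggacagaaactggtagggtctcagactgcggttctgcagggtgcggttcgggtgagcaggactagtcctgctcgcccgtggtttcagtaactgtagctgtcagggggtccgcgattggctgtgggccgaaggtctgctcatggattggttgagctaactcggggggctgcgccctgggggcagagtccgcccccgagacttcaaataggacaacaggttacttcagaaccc
The letters occurred 3 times before *Flt1*, 1 time before *Kdr*, 6 times before *Tie1* and 2 times before *Robo4*, and 0 times before *Cldn5*. RefSeq windows were at hand for 23 of the 38 members, 28 windows in all, and 71.4% of them held the letters against 64.1% of all 32851 windows, so they are common before any gene. The core letters of RBPJ sites, TGGGAA or TTCCCA, through which Notch acts, were in 25.0% of the members' windows and in 21.6% of all.

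No gene of the list passed the test in a comparison between groups. Of the 50 member probes, 0 passed an adjusted p of 0.05 (limma, Benjamini-Hochberg over all 30859 tested probes) in any of 6 comparisons. These were diabetes without pargyline (D against C), with it (D+P against C+P) and averaged over both, pargyline without diabetes (C+P against C) and with it (D+P against D), and the interaction, which is the change with diabetes under pargyline minus that without it. The share of all tested probes that passed was itself small. It was 0.00648% in D against C, 0.107% in diabetes averaged over pargyline, 0.0454% in D+P against C+P, 0.0324% in C+P against C, 0.00648% in the interaction and 0% in D+P against D. The smallest adjusted p of a member was 0.0811, for *Cldn5* in C+P against C. The standard error of the change between 2 groups ran from 0.13 for *Efnb2* to 0.83 for *Notch1* over the brightest probes, and a p above the threshold does not show that a level stayed the same. Differences near 0 changed by a large factor, or in sign, when 1 array was left out, and for larger ones the value without that array is given.

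**Figure D1:**
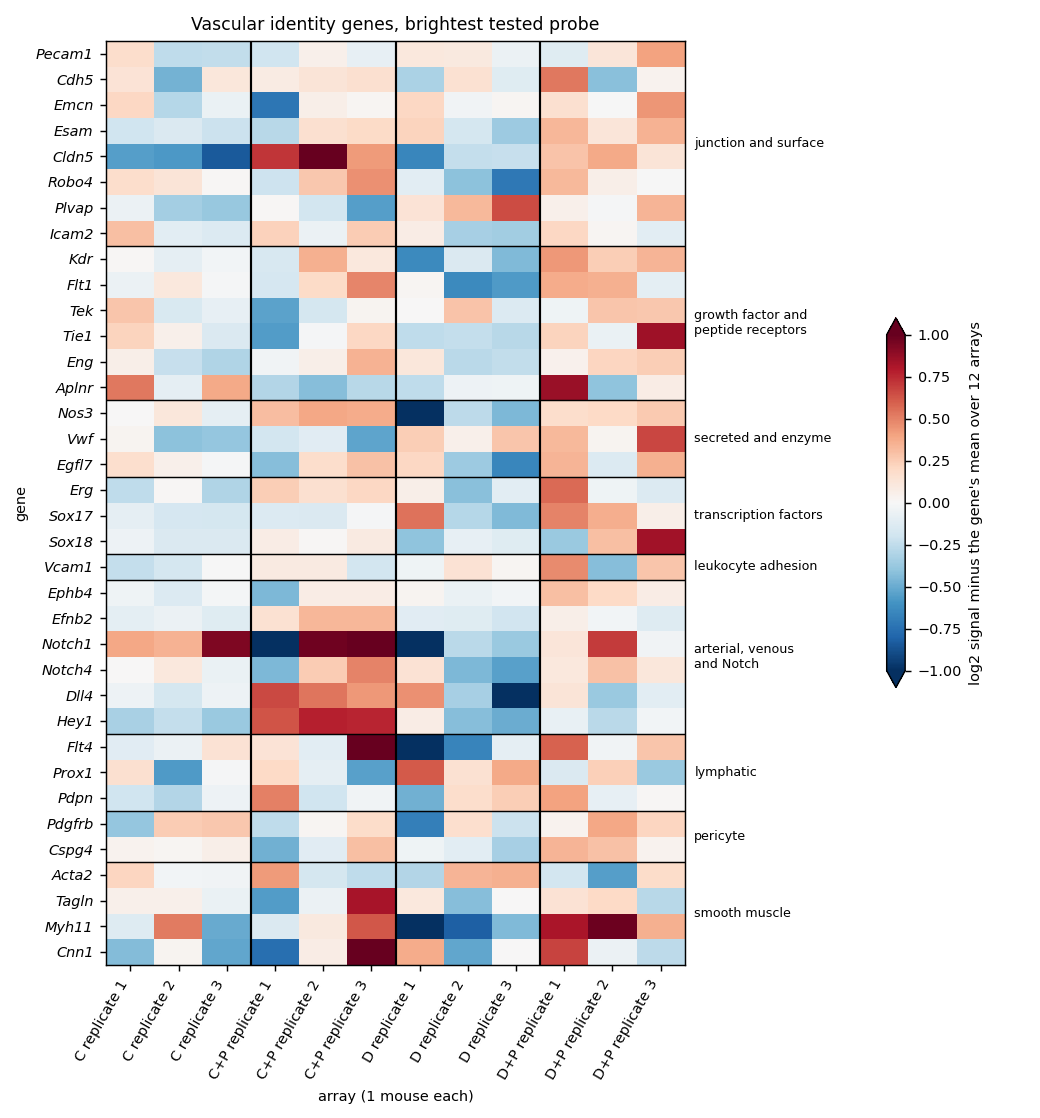
Log2 signal of the brightest tested probe of 36 vascular genes (rows, grouped by role) on each of the 12 arrays (columns, grouped by treatment), minus the mean of that gene over the 12 arrays. Red is above and blue below the gene's mean, and colours stop at 1 and -1. The D columns lean to blue and the D+P columns to red in the endothelial rows, with 26 of 27 genes above 0 in D+P against D, while *Cldn5* and *Hey1* are reddest in C+P.

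D against C asked how the vessel genes stood in the diabetic heart without pargyline. The member with the smallest adjusted p was *Nos3*, which encodes endothelial nitric oxide synthase (probe at chromosome 5, 23890038 to 23890097, build mm9). Its signal was 11.22, 11.32 and 11.13 on the C arrays, 11.52, 11.60 and 11.59 on C+P, 10.19, 10.95 and 10.77 on D and 11.39, 11.42 and 11.48 on D+P. All 3 D arrays were below all other arrays, and the D+P arrays lay just below the C+P arrays. The difference was -0.59 in D against C (SE 0.19, adjusted p 0.346), while for D+P against C+P it was -0.14 (SE 0.19, adjusted p 0.883). The D value leaned on D replicate 1, without which the difference in D against C was -0.36. *Nos3* was the only member whose brightest probe was lower without overlap in both comparisons, as 1.29% of all tested probes were.

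The largest difference in size on a brightest probe was that of *Notch1*, a Notch receptor gene, at -1.28 (SE 0.83, adjusted p 0.572), with D below C on every array. Its arrays, shown with the interaction, gave the largest SE among the brightest probes. *Robo4*, *Flt1* and *Kdr* are named here after their values were seen. *Robo4*, which encodes a receptor that stabilises quiescent vessels (chromosome 9, 37221537 to 37221596), gave 12.09, 12.04 and 11.92 on the C arrays against 11.80, 11.50 and 11.19 on the D arrays. These did not overlap, and the difference was -0.52 (SE 0.21, adjusted p 0.431). *Flt1*, the gene of VEGF receptor 1, had 3 tested probes, and all had a lower mean in D, with differences of -0.46 to -0.35. The dimmest of these 3 was at -0.09 without D replicate 1, and the brightest at -0.41, or -0.62 without that array. For the second brightest (chromosome 5, 148448888 to 148448947) the C arrays were at 10.24, 10.44 and 10.28 and the D arrays at 9.78, 9.81 and 9.99, without overlap (SE 0.19, adjusted p 0.431). *Kdr*, the gene of VEGF receptor 2 (chromosome 5, 76329309 to 76329368), was at 12.63, 12.53 and 12.59 in C and at 11.98, 12.47 and 12.18 in D. Its groups did not overlap either, by a small margin, and the difference was -0.37 (SE 0.18, adjusted p 0.473).

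*Vwf* and *Plvap* had the largest changes above 0 among the endothelial genes in diabetes averaged over pargyline. *Vwf* encodes von Willebrand factor, which endothelial cells store and release for clotting. Its brightest probe (chromosome 6, 125636551 to 125636610) read 11.23, 10.79 and 10.81 in C, 11.02, 11.08 and 10.67 in C+P, 11.45, 11.25 and 11.48 in D and 11.52, 11.22 and 11.86 in D+P. Every diabetic array exceeded the arrays of its control group, for D by only a small margin, and the difference averaged over pargyline was 0.53 (SE 0.15, adjusted p 0.234). *Vwf* was the only member whose brightest probe was higher without overlap in both comparisons, as 1.21% of all tested probes were. A dimmer *Vwf* probe was 0.72 higher in D+P against C+P (SE 0.28, adjusted p 0.619; 0.42 without D+P replicate 3) and differed by -0.05 in D against C. Megakaryocytes and platelets also make von Willebrand factor. Over the 3 tested platelet markers the mean signal relative to each gene's mean lay at 0.11 to 0.56 in C, 0.61 to 1.34 in C+P, -0.26 to -0.17 in D and -1.61 to -0.83 in D+P, and *Itga2b* was well above background on 0 arrays. Their part in the *Vwf* values was not tested.

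*Plvap* encodes the protein of the diaphragms that span endothelial caveolae and fenestrae (chromosome 8, 74021877 to 74021936). It read 8.03, 7.75 and 7.72 in C, 8.11, 7.91 and 7.54 in C+P, 8.23, 8.41 and 8.74 in D and 8.14, 8.08 and 8.43 in D+P. D stood above C without overlap, while D+P overlapped C+P at its lower end. The difference was 0.63 in D against C (SE 0.20, adjusted p 0.350), 0.37 in D+P against C+P (SE 0.20, adjusted p 0.717; 0.21 without C+P replicate 3) and 0.50 averaged over pargyline (SE 0.14, adjusted p 0.247). *Emcn*, the gene of endomucin, a mucin of capillary and venous surfaces, was next in size among endothelial genes. It read 11.63, 11.13 and 11.35 in C, 10.69, 11.47 and 11.43 in C+P, 11.62, 11.38 and 11.44 in D and 11.57, 11.41 and 11.86 in D+P. The groups overlapped, and the difference averaged over pargyline was 0.26 (SE 0.16, adjusted p 0.574), or 0.14 without C+P replicate 1.

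**Figure D2:**
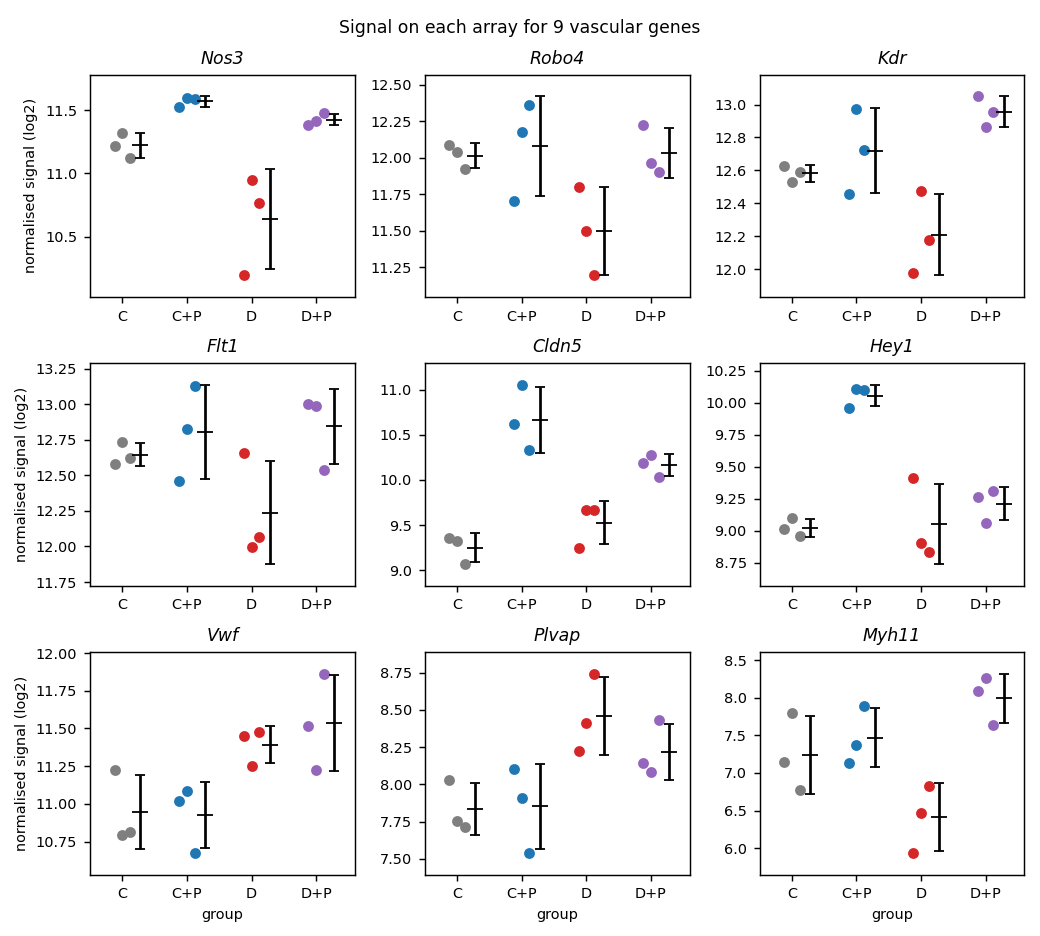
Normalised log2 signal of 9 vascular genes on each array (points, 3 per group) with the mean and SD of each group (horizontal mark and bars), by group on the x axis and on a separate y axis for each gene. *Nos3*, *Robo4*, *Kdr*, *Flt1* and *Myh11* have their lowest group mean in D, *Vwf* and *Plvap* have their 2 highest means in the diabetic groups, and *Hey1* and *Cldn5* have their highest mean in C+P.

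Over the whole list, D against C gave 3 member probes higher and 4 lower at an unadjusted p under 0.05, or 6% and 8% of the 50. Among all tested probes 5.13% were higher and 5.66% lower at that level, so the members' share was near the background. The lower ones were *Nos3*, *Robo4*, *Flt1* and *Myh11*, and the higher ones *Plvap* and single probes of *Prox1* and *Acta2*. Without C replicate 2 the count of lower probes was 1, beside 3.18% of all. Changes above 0 made up 42% of member probes against 48.9% of all. The arrays of diabetic mice lay in row 2 of each slide and those of mice without diabetes in row 1, and the effects of row and of diabetes cannot be told apart.

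D+P against C+P, which shares no arrays with D against C, asked the same with pargyline in both groups. At an unadjusted p under 0.05 only *Vwf* was higher, with both its probes (4% of member probes, 3.67% of all), and *Hey1*, *Cldn5* and *Efnb2* were lower (6% of member probes, 3.79% of all). The higher count of 2 was 0 without D+P replicate 3, beside 2.65% of all, and 4 without C+P replicate 3, beside 3.76% of all. The lower count of 3 was 1 without C+P replicate 2, beside 3.2% of all, and 5 without D replicate 1, beside 4.91% of all. Changes above 0 made up 64% of member probes and 51% of all. That lean rested on C+P replicate 1, without which both shares were level, at 50% of member probes and 50.6% of all. With arrays weighted by quality the share of member probes was 52%. Averaged over pargyline, *Vwf*, *Plvap* and an *Acta2* probe were higher (6% of member probes, 5.93% of all) and *Hey1*, *Nos3* and a dim *Vcam1* probe were lower (6%, and 5.46% of all). The lower count of 3 was 8 without C+P replicate 1, beside 5.89% of all, and 2 without C replicate 1, beside 4.18% of all. The endothelial genes furthest below 0 there were *Notch1* at -0.46 (SE 0.59, adjusted p 0.794), *Dll4* at -0.45 (SE 0.23, adjusted p 0.488; -0.25 without D replicate 3) and *Hey1* at -0.41 (SE 0.12, adjusted p 0.259). The *Hey1* mean was lowest in C and highest in C+P, so its averaged value came from D+P against C+P and not from D against C. The median change of the 27 endothelial genes was -0.02 with diabetes alone, 0.17 between the pargyline groups and -0.02 averaged, beside 0.01, 0.01 and 0.00 over all 20893 genes. Without C+P replicate 1 the value between the pargyline groups was -0.04, with 13 of the 27 genes above 0 in place of 18. The median with diabetes alone ran from -0.10 without D replicate 1 to 0.00 without D replicate 3, and the averaged one from -0.10 without D+P replicate 1 to 0.02 without D replicate 2, so neither kept its sign.

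**Figure D3:**
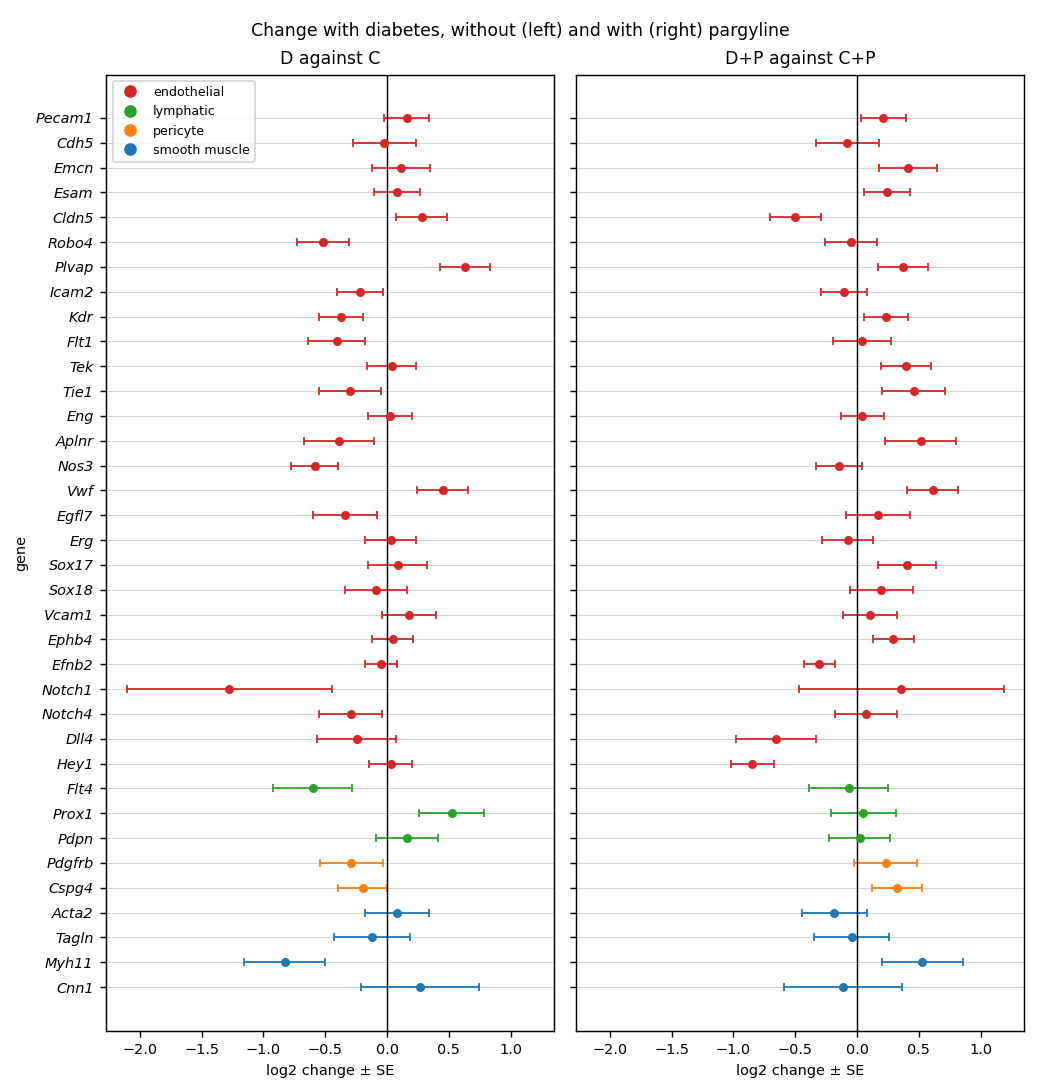
Log2 change with its standard error (bars) for 36 genes, with D against C on the left, D+P against C+P on the right and 3 arrays per group. Colours mark the cell class, and the vertical line is no difference. The endothelial points scatter on both sides of 0, *Nos3*, *Robo4* and *Myh11* lie left of it in D against C, and *Hey1*, *Dll4* and *Cldn5* lie left of it in D+P against C+P.

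*Cldn5*, *Hey1* and *Efnb2*, the genes lower in D+P by that measure, had their highest mean in C+P. *Cldn5* encodes claudin-5, the main tight junction protein of endothelium (chromosome 16, 18778046 to 18778105). Its signal was 9.35, 9.32 and 9.07 in C, 10.62, 11.05 and 10.33 in C+P, 9.25, 9.66 and 9.67 in D and 10.19, 10.28 and 10.03 in D+P. Both pargyline groups lay above both groups without it, and C+P lay highest. The difference was 1.42 in C+P against C (SE 0.21, adjusted p 0.0811), which is the closest that a member came to the threshold, and 0.64 in D+P against D (SE 0.21, adjusted p 0.249). For D+P against C+P it was -0.50 (SE 0.21, adjusted p 0.638), or -0.31 without C+P replicate 2.

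*Hey1* encodes a transcriptional repressor that Notch switches on in arterial endothelium (chromosome 3, 8663432 to 8663491). It read 9.01, 9.10 and 8.96 in C, 9.96, 10.11 and 10.10 in C+P, 9.41, 8.91 and 8.84 in D and 9.26, 9.06 and 9.31 in D+P. The C+P arrays were above all 9 others. The difference was 1.03 in C+P against C (SE 0.17, adjusted p 0.142), -0.85 in D+P against C+P (SE 0.17, adjusted p 0.193) and -0.88 in the interaction (SE 0.24, adjusted p 0.585). With arrays weighted by their quality in limma, *Hey1* and *Cldn5* passed the threshold in C+P against C, with adjusted p of 0.00165 and 0.00198.

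Of the other genes of arterial identity *Efnb2* and *Dll4* also had their highest mean in C+P. *Efnb2* encodes ephrin-B2, the arterial partner of the venous receptor gene *Ephb4*. It lay at 8.76 to 8.82 in C, 9.03 to 9.21 in C+P, 8.69 to 8.77 in D and 8.75 to 8.94 in D+P, with C+P apart from the rest, and was 0.36 higher in C+P against C (SE 0.13, adjusted p 1.00). *Dll4*, a Notch ligand of arterial and sprouting endothelium, was at 5.80, 5.68 and 5.80 in C, 6.51, 6.39 and 6.28 in C+P, 6.31, 5.52 and 4.71 in D and 5.98, 5.48 and 5.75 in D+P. C+P was above C and D+P without overlap, and the D arrays were widely spread. *Dll4* differed by 0.63 in C+P against C (SE 0.32, adjusted p 1.00) and by -0.65 in D+P against C+P (SE 0.32, adjusted p 0.683). Its interaction of -0.41 (SE 0.45, adjusted p 0.857) was -0.81 without D replicate 3 and -0.01 without D replicate 1, and turned to 0.05 without C+P replicate 1 and D replicate 1 together. *Ephb4* and *Notch4* differed by -0.03 and 0.09 in C+P against C. The 3 tested *Ephb4* probes parted in sign elsewhere, with differences of -0.13 to 0.05 in D against C and of -0.01 to 0.21 in D+P against D.

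The C+P arrays stood apart in another way as well. Of the 9 tested immediate early genes, which cells switch on within minutes of a stimulus, 9 had a change above 0 in C+P against C and 5 passed the threshold. Their mean, relative to each gene's mean over the arrays, was 1.80 to 2.23 in C+P, -0.75 to -0.39 in C, -1.05 to -0.63 in D and -0.85 to -0.36 in D+P. Their part in the values of *Cldn5*, *Hey1*, *Efnb2* and *Dll4* was not tested. The C and D arrays lay on 1 slide and the C+P and D+P arrays on another, so slide and pargyline cannot be told apart in C+P against C or in D+P against D.

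At an unadjusted p under 0.05, C+P against C gave 5 member probes higher, those of *Cldn5*, *Hey1*, *Efnb2* and single probes of *Flt1* and *Acta2*, and 0 lower. These were 10% and 0% of the members, beside 1.95% and 2.48% of all tested probes. The count of 5 was 3 without C replicate 3, beside 1.53% of all, and 3 without C+P replicate 2, beside 1.66% of all. Changes above 0 made up 62% of member probes and 49% of all. The share of member probes was 82% both without C+P replicate 1, beside 47.3% of all, and with arrays weighted by quality, beside 50.4% of all.

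D+P against D asked how the vessel genes stood with pargyline in the diabetic heart. Of the 50 member probes 43 (86%) had a change above 0, beside 49.9% of all tested probes, and of the 27 endothelial genes 26, with a median of 0.30 beside -0.02 over all genes. With arrays weighted by quality these were 78% of member probes, beside 46.5% of all, and 24 of 27 genes. Without D+P replicate 1, and likewise without D+P replicate 3, 23 of the 27 genes were above 0. With all arrays the exception was *Plvap*, at -0.24 (SE 0.20, adjusted p 0.615), and it lay less far below 0 without D replicate 3. At an unadjusted p under 0.05, 10 member probes were higher (20%, beside 6.85% of all) and 1 was lower (2%, beside 6.43% of all). The 10 were 2 probes of *Flt1* and 1 each of *Kdr*, *Tie1*, *Eng*, *Nos3*, *Robo4*, *Cldn5*, *Flt4* and *Myh11*. Their adjusted p ran from 0.157 to 0.354, and the whole array held 0 probes past the threshold here. The count of 10 was 16 without D replicate 1, beside 10.4% of all, 6 without D replicate 3, beside 5.56% of all, and 6 without D+P replicate 1, beside 5.36% of all.

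The 6 genes of receptors for vascular growth factors and peptides all lay above 0 in D+P against D, with a median of 0.45. In D against C 2 of the 6 did, with a median of -0.34, and in D+P against C+P 6 of 6, with a median of 0.32. Without C+P replicate 1 the last of these was 4 of 6, with a median of 0.17, and without D+P replicate 1 it was 5 of 6, with a median of 0.18. The count in D against C was 0 of 6 without C replicate 2, with a median of -0.33, and 1 of 6 without D replicate 1, with a median of -0.28. *Kdr* was at 13.05, 12.86 and 12.96 in D+P, above the 11.98, 12.47 and 12.18 of D and above its C arrays. It was 0.75 higher (SE 0.18, adjusted p 0.176). The brightest *Flt1* probe read 12.58, 12.74 and 12.62 in C, 12.46, 12.83 and 13.12 in C+P and 12.65, 11.99 and 12.07 in D, with a mean of 12.84 ± 0.26 (SD, n = 3) in D+P. D+P overlapped D, and the difference was 0.61 (SE 0.23, adjusted p 0.302), while the second probe was 0.76 higher without overlap (SE 0.19, adjusted p 0.182). *Tie1*, an orphan receptor that works with the angiopoietin receptor (chromosome 4, 118144132 to 118144191), was at 10.05, 9.88 and 9.68 in C, 9.26, 9.82 and 10.03 in C+P, 9.57, 9.59 and 9.55 in D and 10.05, 9.76 and 10.67 in D+P. It was 0.59 higher (SE 0.25, adjusted p 0.354), a value that leaned on D+P replicate 3 and was 0.34 without it. *Eng*, a coreceptor gene for TGF-β family ligands, had 2 tested probes. The brighter was at 10.47, 10.09 and 10.11 in D and 10.39, 10.57 and 10.60 in D+P, a difference of 0.30 (SE 0.17, adjusted p 0.469). The dimmer, which is the one counted among the 10, was at 6.54, 6.18 and 5.78 in D and 6.95, 6.55 and 7.00 in D+P, apart by a bare margin, and differed by 0.67 (SE 0.26, adjusted p 0.309). In D against C they differed by 0.02 and -0.32, the latter -0.12 without D replicate 3. *Tek*, the angiopoietin receptor gene itself, and *Aplnr*, the apelin receptor gene, differed by 0.12 and 0.30 in D+P against D, and *Aplnr* was at -0.05 without D+P replicate 1.

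For *Nos3* the difference in D+P against D was 0.79 (SE 0.19, adjusted p 0.176), and for *Robo4*, with 12.23, 11.97 and 11.90 in D+P, it was 0.54 (SE 0.21, adjusted p 0.311). Neither gene's D+P arrays overlapped its D arrays. The transcription factor genes *Erg*, *Sox17* and *Sox18*, which hold endothelial identity, differed by 0.28, 0.37 and 0.46, with adjusted p of 0.565, 0.512 and 0.447. All 3 leaned on single arrays. *Erg* was at 0.07 without D+P replicate 1, *Sox17* at 0.18 without D replicate 3 and 0.67 without D replicate 1, and *Sox18* at 0.17 without D+P replicate 3 and 0.77 without D+P replicate 1. The junction and surface genes *Pecam1*, *Cdh5*, *Emcn*, *Esam* and *Icam2* differed by 0.08 to 0.37, the last for *Esam*, which was at 0.24 without D replicate 3. *Egfl7*, a secreted factor of endothelium, differed by 0.45 (SE 0.26, adjusted p 0.461), or 0.26 without D replicate 3.

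D had the lowest of the 4 group means for 18 of 36 members (50%), beside 29.9% of all genes, and D+P the highest for 19 of 36 (52.8%), beside 24.4% of all genes. Both held for 9 of 36 (25%), beside 11.2% of all genes, and without C+P replicate 1 for 6 of 36, beside 9.79%. The mean over the 27 endothelial genes, relative to each gene's mean, was 0.02, -0.12 and -0.10 on the C arrays, -0.16, 0.19 and 0.20 on C+P, -0.10, -0.17 and -0.26 on D and 0.23, 0.06 and 0.20 on D+P. D and D+P did not overlap, D overlapped C, and C+P replicate 1 stood apart from the other C+P arrays. D against C and D+P against D share the D arrays, so low values on those arrays move both at once and in opposite directions.

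Repeated spots of a probe varied most on 5 arrays, the first replicate of every group and the third of D+P, by a median of 10.1% to 23.2%, against 3.89% to 5.68% on the other 7 arrays. Without these 5 arrays, which leaves D+P with 1 array, 72% of member probes had a change above 0 in D+P against D, beside 45.6% of all. The same setting gave 38% of member probes above 0 in D+P against C+P, beside 51.5% of all and below the 64% with all arrays, 82% in C+P against C, beside 49.8% of all, and 38% in D against C, beside 54.5% of all. At an unadjusted p under 0.05, 11 member probes were then higher in D+P against D, beside 8.51% of all, on the assumption that the lone D+P array varies like those of the other groups.

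**Figure D4:**
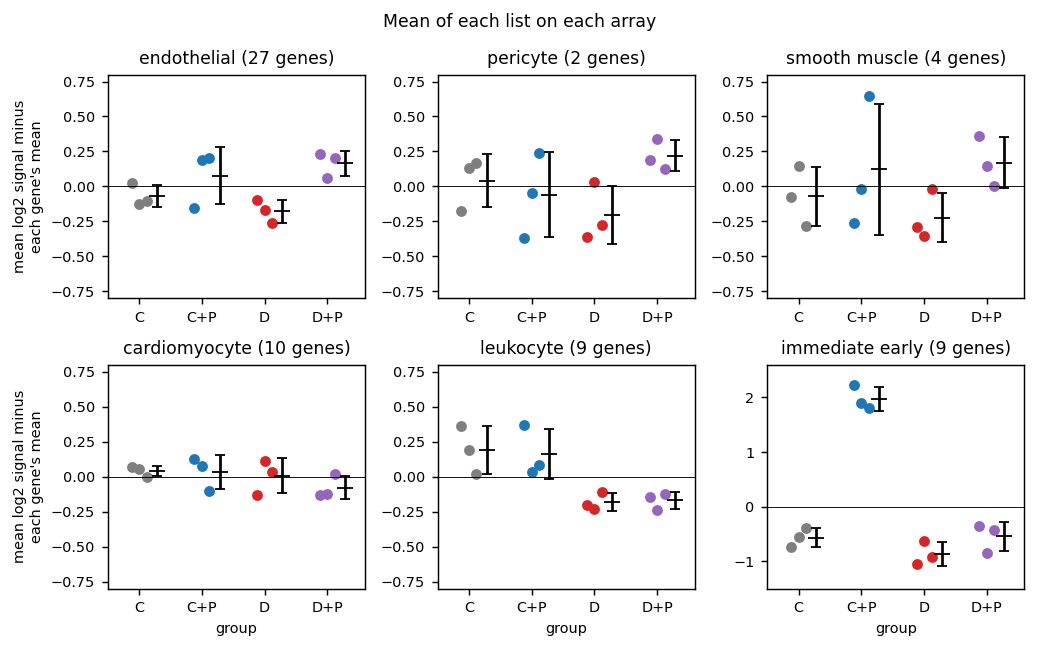
Mean log2 signal over the genes of a list, relative to each gene's mean over the 12 arrays, on each array (points, 3 per group) with the group's mean and SD. The endothelial, pericyte and smooth muscle lists are vascular members, the cardiomyocyte and leukocyte lists are markers of other cells, and the immediate early genes have a wider y axis. Endothelial means lie at -0.26 to -0.10 on D arrays and at 0.06 to 0.23 on D+P arrays, and immediate early means at 1.80 to 2.23 on C+P arrays.

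Markers of other cells were read on the same arrays. The 10 cardiomyocyte genes had a mean of 0.01 ± 0.13 (SD, n = 3) in D and -0.08 ± 0.08 (SD, n = 3) in D+P, and the 10 fibroblast genes 0.03 ± 0.29 (SD, n = 3) and 0.07 ± 0.15 (SD, n = 3). The 9 leukocyte genes lay at -0.23 to -0.11 in D and -0.24 to -0.12 in D+P, below 0.02 to 0.36 in C. The 4 atrial genes lay at -0.59 to -0.21 in C, -0.20 to 0.39 in C+P, 0.21 to 0.53 in D and -0.84 to 0.33 in D+P, and the 2 mesothelial genes at -0.48 to -0.16 in C, -0.67 to 0.45 in C+P, 0.10 to 0.63 in D and -0.25 to 0.61 in D+P. Both lists stood higher in D than in C without overlap. The median change in D+P against D was 0.39 over the 3 Schwann cell genes, all above 0, and -0.05 over the 6 erythroid genes, 1 of them above 0, with 0 past the threshold in each list. The adipocyte markers *Adipoq*, *Plin1*, *Cidec* and *Retn* were well above background on 0 arrays, and *Cfd*, on 5 of 12, differed by -1.06 in D+P against D (SE 0.56, adjusted p 0.429). The part of the mix of cells in the members' values was not tested.

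The interaction asked whether the change with diabetes differed with and without pargyline. At an unadjusted p under 0.05, *Kdr*, *Aplnr* and *Myh11* were above 0 (6% of member probes, 4.12% of all) and *Hey1*, *Cldn5* and a *Prox1* probe below it (6%, and 2.91% of all). Both counts were 1 without C replicate 3, beside 3.3% and 2.36% of all. Without C+P replicate 3 they were 4 and 3, beside 5.27% and 4.05% of all. *Kdr* was 0.61 (SE 0.25, adjusted p 0.703) and *Cldn5* -0.78 (SE 0.29, adjusted p 0.683). *Aplnr* was 0.90 (SE 0.40, adjusted p 0.709), and 0.56 without D+P replicate 1. Its signal was 8.49, 7.87 and 8.34 in C, 7.67, 7.54 and 7.68 in C+P, 7.71, 7.91 and 7.91 in D and 8.83, 7.56 and 8.04 in D+P. C lay above C+P and the D+P arrays were too spread to place. *Tie1* was 0.76 (SE 0.36, adjusted p 0.713), and 0.50 without D+P replicate 3. *Notch1*, a receptor that vessels and other heart cells share, had the largest value at 1.63 (SE 1.17, adjusted p 0.773). Its signal was 13.44, 13.41 and 13.99 in C, 10.48, 14.03 and 14.37 in C+P, 11.54, 12.79 and 12.68 in D and 13.17, 13.75 and 13.02 in D+P. A single C+P array held the lowest value of all, and the other C+P arrays the highest. D+P lay above D without overlap, by 0.98 (SE 0.83, adjusted p 0.622), or 0.58 without D replicate 1. Without C+P replicate 1 the interaction was 0.39, and without C+P replicate 1 and D replicate 1 together it was -0.01. The same spread left its change averaged over pargyline between -1.08 and -0.11 when 1 array at a time was left out, around a value of -0.46.

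The lymphatic genes took no common course. *Prox1*, the master regulator of lymphatic fate, is also made by cardiomyocytes. Its second probe (chromosome 1, 191946360 to 191946419) was at 9.40, 9.51 and 9.49 in C, 9.73, 9.57 and 9.40 in C+P, 10.28, 9.83 and 9.73 in D and 9.29, 9.56 and 9.60 in D+P. D lay above C and D+P without overlap, by 0.48 against C (SE 0.18, adjusted p 0.402), and D+P differed from D by -0.46 (SE 0.18, adjusted p 0.305). Without D replicate 1 these were 0.32 and -0.29. The brighter probe read 10.25, 9.53 and 10.08 in C, 9.95 ± 0.38 (SD, n = 3) on average in C+P, 10.71, 10.24 and 10.47 in D and 9.95, 10.33 and 9.72 in D+P. It differed by 0.52 and -0.47 in the same comparisons, with overlap in both, and the first was 0.31 without C replicate 2. *Flt4*, the gene of VEGF receptor 3, was well above background on 0 of 12 arrays. It read 3.90, 3.95 and 4.15 in C, 4.15, 3.90 and 5.01 in C+P, 2.94, 3.35 and 3.92 in D and 4.60, 3.97 and 4.28 in D+P. D+P lay above D without overlap (adjusted p 0.283), but none of these values was well above background and no fold is given. *Pdpn*, the gene of podoplanin, which other stromal cells share, was at 8.14, 8.05 and 8.29 in C, 8.85, 8.15 and 8.31 in C+P, 7.86, 8.52 and 8.59 in D and 8.75, 8.26 and 8.36 in D+P. Its groups overlapped, and it differed by 0.16 between D and C and by 0.02 between D+P and C+P, with SE 0.25 and adjusted p of 0.826 and 0.989.

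Both pericyte genes had a lower mean in D than in C and a higher mean in D+P than in C+P. *Pdgfrb*, the receptor gene for the platelet-derived growth factor that recruits pericytes, read 9.88, 10.51 and 10.53 in C, 10.01, 10.29 and 10.45 in C+P, 9.58, 10.43 and 10.05 in D and 10.30, 10.65 and 10.48 in D+P. All groups overlapped, with differences of -0.29 in D against C (SE 0.25, adjusted p 0.677) and 0.46 in D+P against D (SE 0.25, adjusted p 0.449). Without D replicate 1 they were -0.07 and 0.24. *Cspg4*, the gene of the NG2 proteoglycan, was at 9.04, 9.02 and 9.07 in C, 8.52, 8.89 and 9.30 in C+P, 8.96, 8.90 and 8.67 in D and 9.35, 9.30 and 9.04 in D+P. D lay below C and below D+P without overlap, by differences of -0.20 (SE 0.20, adjusted p 0.720; -0.11 without D replicate 3) and, for D+P against D, 0.38 (SE 0.20, adjusted p 0.426). Its dimmer tested probe was well above background on 3 C, 0 D and 3 D+P arrays, which puts D at least 1.19-fold lower than C (adjusted p 0.692) and D+P at least 1.27-fold higher than D (adjusted p 0.587).

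Among the smooth muscle genes *Myh11* stood apart. It encodes the smooth muscle myosin heavy chain, the most specific contractile marker of that cell. The brightest probe (spanning chromosome 16, 14195223 to 14198147) read 7.15, 7.79 and 6.77 in C, 7.13, 7.38 and 7.90 in C+P, 5.94, 6.46 and 6.83 in D and 8.10, 8.26 and 7.63 in D+P. D+P exceeded D on every array, and D overlapped C. The difference was -0.83 in D against C (SE 0.32, adjusted p 0.422; -0.55 without C replicate 2), 1.59 in D+P against D (SE 0.32, adjusted p 0.157), the smallest adjusted p of that comparison among the members, and 1.36 in the interaction (SE 0.46, adjusted p 0.665). The second *Myh11* probe differed by -0.22 in D against C and by 0.53 in D+P against D, the first of these -0.03 without C replicate 2. The third differed by -1.30 and 0.40, or -0.55 and -0.34 without D replicate 1. The third probe was far below its other values on C+P replicate 1, D replicate 1 and D+P replicate 1, at 3.24, 4.42 and 4.66, which are arrays whose repeated spots varied most. The fourth was well above background on 1 C, 1 C+P, 0 D and 1 D+P arrays, so it is given no fold (adjusted p 0.392 in D+P against D). It read 6.49, 5.23 and 4.99 in D+P, the highest on D+P replicate 1, an array whose repeated spots varied most.

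The other smooth muscle genes had smaller differences on their brightest probes, of -0.12 to 0.26 in D against C. *Acta2*, the gene of smooth muscle α-actin, had 3 tested probes that parted. The brightest read 12.89, 12.64 and 12.63 in C, 13.09, 12.49 and 12.42 in C+P, 12.37, 13.01 and 13.02 in D and 12.48, 12.11 and 12.85 in D+P. All groups overlapped, and D against C gave a difference of 0.08 (SE 0.26, adjusted p 0.928). The second (chromosome 19, 34316060 to 34316119) was at 10.90, 11.26 and 10.90 in C, 11.41, 11.74 and 11.87 in C+P, 11.55, 11.77 and 11.64 in D and 12.16, 11.48 and 11.63 in D+P, with C below all other arrays. It was 0.63 higher in D against C (SE 0.21, adjusted p 0.357) and 0.65 higher in C+P against C (SE 0.21, adjusted p 0.996), where the brightest probe differed by -0.05. *Tagln*, the gene of SM22α, read 11.04, 11.04 and 10.92 in C, 10.43, 10.93 and 11.81 in C+P, 11.09, 10.56 and 10.99 in D and 11.13, 11.19 and 10.71 in D+P, with C+P the most spread. It differed by -0.12 between D and C and by 0.13 between D+P and D (SE 0.31 each, adjusted p 0.904 and 0.876). *Cnn1*, the gene of calponin, read 7.01, 7.47 and 6.93 in C, 6.69, 7.52 and 8.83 in C+P, 7.82, 6.93 and 7.45 in D and 8.12, 7.39 and 7.19 in D+P. It differed by 0.26 and 0.17 in the same comparisons (SE 0.48 each, adjusted p 0.858 and 0.900), the first 0.05 without D replicate 1, and its spread within C+P was wider than any difference between groups.

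Probes of 1 gene also parted for *Vcam1* and *Flt1*. *Vcam1* encodes a leukocyte adhesion molecule of activated endothelium. Its brightest probe (chromosome 3, 115813216 to 115813275) read 8.47, 8.54 and 8.71 in C, 8.80, 8.81 and 8.53 in C+P, 8.67, 8.86 and 8.73 in D and 9.18, 8.29 and 8.99 in D+P, and differed by 0.14 averaged over pargyline (SE 0.15, adjusted p 0.755). A dim probe (chromosome 3, 115828953 to 115829012) read 5.46, 5.14 and 5.15 in C, 5.49, 5.36 and 5.45 in C+P, 3.11, 5.02 and 5.45 in D and 3.09, 4.42 and 5.08 in D+P. It was well above background on 3 C, 2 C+P, 1 D and 0 D+P arrays, so its average over pargyline (adjusted p 0.409) is given no size. The bound puts D+P at least 1.24-fold lower than C+P (adjusted p 0.675). In C+P against C the 3 *Flt1* probes differed, from brightest to dimmest, by 0.16, 0.42 and -0.20. The second was at 0.24 without C+P replicate 3, and the dimmest turned to 0.20 without C+P replicate 1, where all 3 were above 0. That probe was at 10.39, 10.75 and 11.10 in C+P and the dimmest at 7.50, 7.80 and 7.59 in C and 6.62, 7.70 and 7.96 in C+P.

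Lists of further vessel genes put the members in context. Of 78 tested genes in the 6 lists of vascular growth factor ligands, other Notch genes, other endothelial transcription factors, capillary fatty acid handling, vasoactive and anticoagulant genes and other junction genes, 47 (60.3%) were above 0 in D+P against D, beside 48.2% of all genes, where 26 of the 27 endothelial members were. At an unadjusted p under 0.05, 11 were higher and 2 lower there, beside 6.03% and 7.00% of all genes, and 0 genes of these lists passed the threshold in any of the 6 comparisons. Among the 11, and chosen here after their values were seen, were the transcription factor gene *Ets1*, at 0.98 (adjusted p 0.213; 0.60 without D replicate 1), and *Vegfa*, the ligand gene of the VEGF receptors, at 0.71 (adjusted p 0.299). In D against C these 2 differed by -0.68 (adjusted p 0.434; -0.30 without D replicate 1) and -0.69 (adjusted p 0.422).

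The largest differences of these lists in diabetes averaged over pargyline had adjusted p between 0.180 and 0.576. *Apln*, the apelin gene, differed by -1.07 and *Figf*, the VEGF-D gene, by -0.84. *Nrarp* and *Jag2*, a target and a ligand of Notch, differed by -1.06 and -0.52. *Klf4* differed by -0.85, or -0.31 without D+P replicate 3, and *Nr2f2*, a factor of venous identity, by 0.56. *Fabp4*, which carries fatty acids in capillary endothelium, differed by 0.55 and *Aqp1*, a water channel, by -0.44. *Tfpi*, an inhibitor of coagulation, differed by 0.71 and *Thbd*, the thrombomodulin gene, by -0.54. *Tmem100* and *Tjp1* differed by 0.80 and 0.39.

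Of the 10 tested genes of the other Notch list, 5 were above 0 in C+P against C, with a median of 0.01 and a range from -0.41 to 0.82, and 4 were in D+P against C+P, with a median of -0.06. The targets *Nrarp* and *Hes1*, chosen after their values were seen, had the largest differences above 0 in C+P against C, at 0.82 and 0.44 (adjusted p 1.00 each), and differed by -1.52 (adjusted p 0.409; -0.93 without D+P replicate 2) and -0.72 (adjusted p 0.368) in D+P against C+P. *Icam1*, an adhesion gene that cytokines induce, was 1.08 higher in C+P against C (adjusted p 0.0934). The immediate early genes were highest on the same C+P arrays, and their part in the *Nrarp*, *Hes1* and *Icam1* values was not tested. Of the other lymphatic genes *Itga9* and *Nrp2* differed most in diabetes averaged over pargyline, by -0.42 and 0.37, of the pericyte genes *Anpep* and *Colec11*, by 0.43 and 0.36, and of the smooth muscle genes *Smtn* and *Itga8*, by -0.34 and 0.31, with adjusted p between 0.348 and 0.595. *Nrp2* was at 0.21 without D replicate 1 and *Itga8* at 0.18 without C replicate 1. In D+P against D, 15 of the 25 tested genes of these last 3 lists (60%) were above 0, beside 48.2% of all genes.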

How the data were processed

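RNA from the heart of 1 mouse was hybridised to each of 12 one-colour Agilent arrays, and each mouse is 1 replicate. The deposited intensity values are scanner signals that the authors extracted with Feature Extraction 12.0.0.7, per the file headers, which subtracts background and detrends within an array, and probe positions are in build mm9. From these, spots marked as outliers were removed, signals were quantile normalised between arrays and turned to log2 (the authors deposited linear intensities, also as a normalised table that served as an alternative), and repeated spots were averaged. The test took 30859 of 56605 probes, those whose signal was positive and significant on 50% or more of each group's arrays. The arrays had 23556 to 29231 of 59305 spots well above background and 0 saturated, correlated at 0.941 to 0.988, and their number limits the precision.

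One mean per group was fitted with limma 3.58.1 (R 4.3.3), two-sided, with Benjamini-Hochberg adjustment over all tested probes of a comparison. Bounds in fold compare the mean of the brighter group with that of the dimmer group, raised on each array to the dimmest signal that was well above background there. The script was tested on simulated data. Groups came from the labels. The members and the other lists were chosen with earlier results of these data known. Full values of the brightest tested probe (each array, or a group's mean and SD) were given for the 3 endothelial genes with the largest values in each direction in diabetes averaged over pargyline and in the interaction, all lymphatic, pericyte and smooth muscle genes, genes without overlap in both diabetes comparisons, and genes with probes that differed in opposite directions, 1 of them at an unadjusted p under 0.05; of each other list, the 1 or 2 genes with the largest change averaged over pargyline. Any other gene was chosen after its values were seen. Alternatives covered scaling, background correction, filters, array weights, the test, blocks, the authors' table, gene means and left-out arrays. The deviations of same-numbered arrays of different groups correlated at -0.20 to 0.20, with 4 of 18 pairs over 0.1, and the mice were not treated as paired. So few arrays cannot exclude a pairing. RefSeq gave the same gene name for all 42 of the 50 tested member probes whose accession it held.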

Additional observations from a re-analysis of the deposited data

How the results depend on the processing

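For D against C, the interaction and D+P against D, 0 member probes passed the threshold in any of the 27, 24 and 27 alternatives, and leaving out 1 array at a time gave 0 in all 6 comparisons. In D+P against C+P 1 passed with normexp background correction and 1 with array weights, each time *Hey1* (adjusted p 0.0178 and 0.0270 by limma). Averaged over pargyline 1 passed with array weights, again *Hey1* (adjusted p 0.0294). In C+P against C 1 passed with normexp (*Hey1*, adjusted p 0.0084), 1 with the filter for well above background and 1 with the mean of all tested probes of a gene (*Cldn5*, adjusted p 0.0405 and 0.0462), and 2 with array weights, *Cldn5* (adjusted p 0.00198) and *Hey1* (adjusted p 0.00165). Over all alternatives the adjusted p in C+P against C ran from 0.00198 to 1 for *Cldn5* and from 0.00165 to 1 for *Hey1*, with the same direction throughout. The cause was not tested. The methods' t-test left 0 members after Benjamini-Hochberg or Bonferroni adjustment.

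The 10 member probes higher in D+P against D at an unadjusted p under 0.05 became 6 to 16 when 1 array was left out, with 5.36% to 10.4% of all probes, and 19 without C+P replicate 1 and D replicate 1 together, where all probes stood at 12.0%. That alternative, and the one without 5 arrays, were added after seeing the data. It also turned the interaction of *Dll4* to 0.0482 and that of *Notch1* to -0.0059. The lower count in D against C (4) ran from 1, without C replicate 2, to 9, without C+P replicate 1 and D replicate 1 together. Beside these stood 3.18% and 10.2% of all probes. The higher count in C+P against C (5) ran from 3, without C replicate 3, beside 1.53% of all probes, to 11. It was 11 with array weights, beside 6.8% of all, and without C+P replicate 1 and D replicate 1 together, beside 2.41% of all. With the replicate number as a block, 0 member probes passed in any comparison, and 10 were higher in D+P against D, as without pairing. The slide as a block could be fitted only for diabetes averaged over pargyline, and the t-test and the fits of 2 groups could not give the average or the interaction.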
